A study of Rattus norvegicus with 12 samples.

Results

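Peroxiredoxins, thioredoxins and superoxide dismutases are enzymes that remove superoxide and peroxides, and 10 of their genes were examined here in rat cells labelled as knockouts of the mitochondrial channel gene Vdac1. The genes were Prdx1, Prdx2, Prdx3, Prdx5, Prdx6, Txn1, Txn2, Txnrd1, Sod1 and Sod2, chosen by their names in the array files. They were read by 12 of the 45598 distinct probes, with a pair of probes each for Txn1 and Txnrd1 and 1 probe for each of the others. The cells were N27, an immortalised rat line labelled as dopaminergic neurons, with either the wild-type genotype (5 cultures, numbered 3, 5, 6, 7 and 8) or the VDAC1 KO genotype made with CRISPR (7 cultures, numbered 1 to 7). Both groups were grown to 80% confluence and received no other treatment that the labels name. The site of the edit and the number of knockout clones are not given in the sources used here. Total RNA of each culture was labelled with Cy3 and hybridised to a 1-colour Agilent array of 60-base probes. Whether the cultures were grown independently is not stated, so the p-values below measure the spread between these samples, which may be technical.

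Superoxide that leaks from the respiratory chain is turned into hydrogen peroxide by superoxide dismutases, Sod2 in the mitochondrial matrix and Sod1 mainly in the cytosol. Peroxiredoxins then reduce the peroxide, and most of them are recharged by thioredoxins, which thioredoxin reductases reduce in turn with electrons from NADPH. The cytosol and the mitochondria each hold their own set, with Prdx3 and Txn2 as the mitochondrial counterparts of Prdx1, Prdx2 and Txn1. VDAC1 spans the outer mitochondrial membrane and passes metabolites and small ions. Dopaminergic cells also form peroxide when dopamine is broken down, which adds to the load these enzymes carry.

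Levels below are log2 signals relative to the array's own 75th percentile, so a difference of 1 is a doubling, and levels of different probes are not comparable with each other. Wild-type values are always listed in the order of cultures 3, 5, 6, 7 and 8. The 12 arrays lay on 3 slides: slides 1 and 3 each held 2 knockout and 2 wild-type arrays, and slide 2 held 3 knockout arrays and 1 wild-type array (culture 5), so every value within slide 2 rests on 1 control. On each array between 42.3% and 53.8% of the spots exceeded background. All 12 member probes were well above background on every array. The brightest of 3 Vdac1 probes was 1.98 ± 0.65 on knockout arrays (SD, n = 7) and 3.21 ± 0.23 on wild-type arrays (SD, n = 5), 2.34-fold lower and without overlap (exact permutation test, two-sided, p = 0.00505), with a limma adjusted p of 0.0562. The other Vdac1 probes, also without overlap, were at -1.22 (called, limma adjusted p = 0.0422) and -1.15 (limma adjusted p = 0.0897). Where these probes lie relative to the edit was not examined. Of 7 dopaminergic markers, Th and Aldh1a1 were above background on every array and Slc6a3, the dopamine transporter, on none. Of 6 general neuronal markers only Eno2 was above background on every array, and Map2, Snap25 and Syp were on none. None of 4 astrocyte and none of 3 oligodendrocyte markers passed on every array, whereas Cd68, 1 of 4 microglial markers, and Col1a1, 1 of 4 fibroblast markers, did.

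The probes printed here are the 2 member probes whose groups did not overlap and those of the thioredoxin pair. Each is 60 bases long and written 5′ to 3′ as the array design gives it.
Txnrd1, transcript bases 1472 to 1531, chr7:23065196-23065255 (rn4, minus strand): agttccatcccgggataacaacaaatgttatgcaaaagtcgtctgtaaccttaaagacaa
Prdx1, transcript bases 412 to 471, chr5:136983425-136984996 (rn4, plus strand): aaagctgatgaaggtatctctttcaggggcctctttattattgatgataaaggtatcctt
Txn1, transcript bases 225 to 284, chr5:75921410-75922750 (rn4, minus strand): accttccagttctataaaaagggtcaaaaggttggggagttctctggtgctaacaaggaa
Txn2, transcript bases 394 to 453, chr7:115834342-115843687 (rn4, minus strand): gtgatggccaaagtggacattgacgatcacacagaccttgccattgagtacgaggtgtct
The probes of Prdx1, Txn1 and Txn2 span 1572, 1341 and 9346 bases of the genome, so each crosses a splice junction and reads spliced RNA. The Txnrd1 probe lies within 60 contiguous genomic bases.

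The dimmer of 2 probes of Txnrd1, the cytosolic thioredoxin reductase, was the only member probe called. At transcript base 1472 it fell by 0.62 in the knockout, a call that was lost in 20 of 28 alternatives. The brighter Txnrd1 probe was at -0.52 and was not called (limma adjusted p = 0.201). At their brightest probe, 9 of the 10 genes had a higher mean in the knockout, each by less than the test could call. In all, 1 of 12 member probes was called (limma, Benjamini-Hochberg adjusted p under 0.05 over 17890 probes), lower in the knockout, against 1.15% of all probes tested in either direction, 0.442% lower and 0.704% higher. Without overlap between the groups were 2 member probes, Prdx1 higher and Txnrd1 lower, against 2.67% of all probes, 1.74% higher and 0.928% lower. At an unadjusted p under 0.05 there were 4 member probes, against 15.8% of all probes, 9.2% higher and 6.62% lower. They were Prdx1 and Prdx3, higher, and both Txnrd1 probes, lower. The median difference over the 10 genes was 0.25, and over all probes tested it was 0.035, with 54.4% of probes positive. That median depended on the scaling: it was 0.092 after quantile normalization, with 8 genes positive and 2 negative. The number of arrays limits the precision of every value here.

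**Figure D1:**
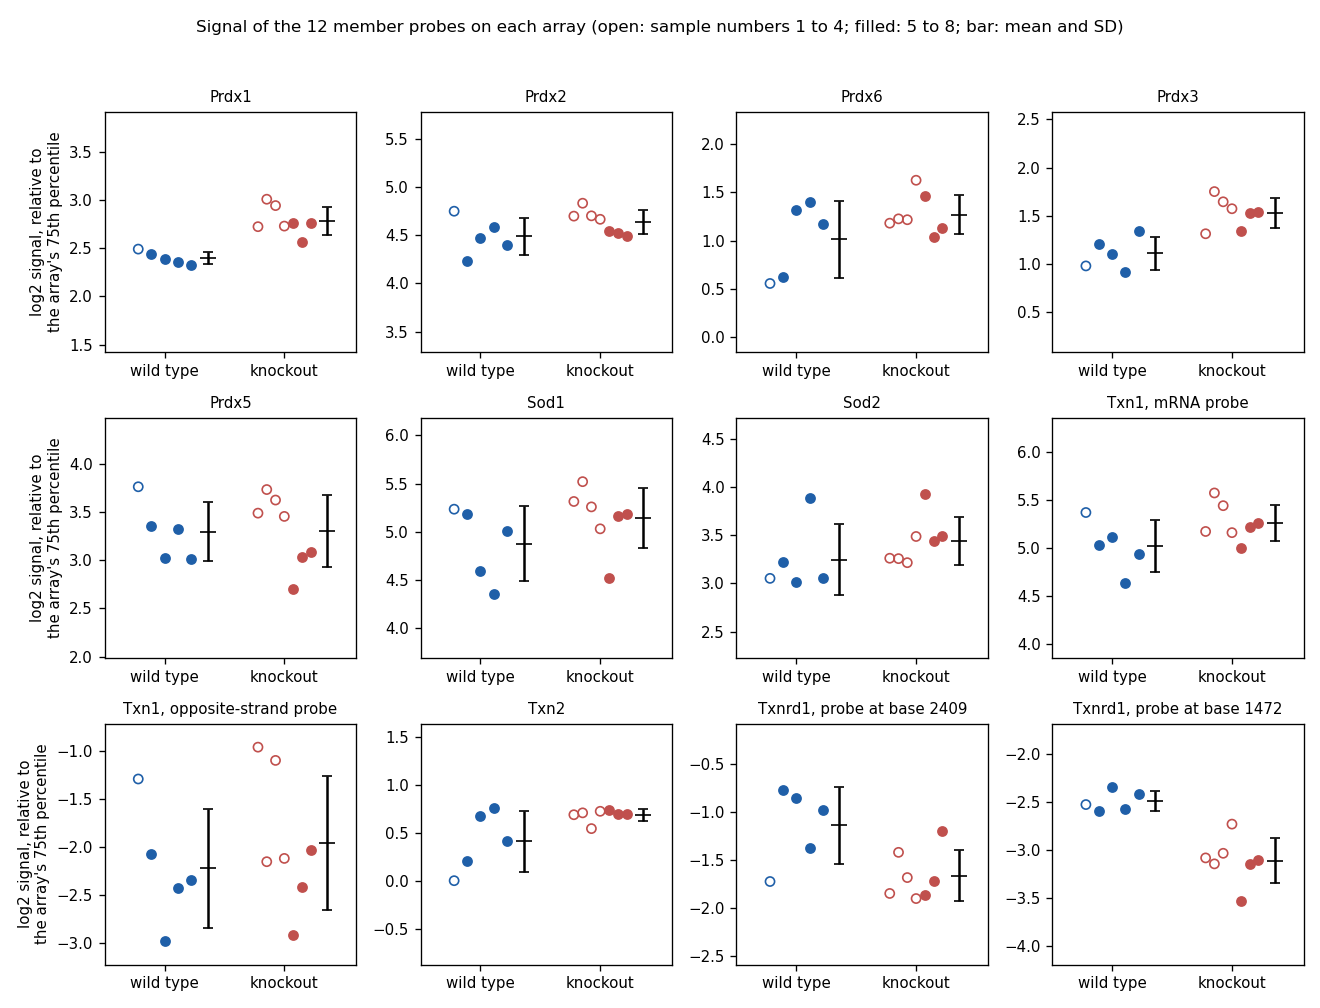
Log2 signal of each member probe on each array, relative to the array's 75th percentile, with wild type in blue (n = 5) and knockout in red (n = 7). Each point is 1 array, open for sample numbers 1 to 4 and filled for 5 to 8, the bars are mean and SD, and all panels span the same number of log2 units. The groups separate without overlap for Prdx1 and for the Txnrd1 probe at base 1472.

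Among the peroxiredoxins, Prdx1 and Prdx3 had the largest differences and Prdx5 the smallest. Prdx1 is a cytosolic typical 2-Cys peroxiredoxin that thioredoxin recharges. Its level was 2.57 at the lowest, 2.76 at the median and 3.01 at the highest of the 7 knockout arrays. The wild-type values were 2.49, 2.44, 2.39, 2.35 and 2.33. Every knockout array was thus above every wild-type array. The difference was 0.38 (SE 0.115, 95% interval 0.14 to 0.63), or 1.31-fold, with a limma adjusted p of 0.120. An exact permutation test (two-sided) gave p = 0.00126, the smallest that permuting these arrays can give. Within slides 1, 2 and 3 the difference was 0.25, 0.45 and 0.37, and with the slide as a block it was 0.35 (limma adjusted p = 0.107).

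Prdx3, the peroxiredoxin of the mitochondrial matrix, differed by 0.42 (SE 0.127, 95% interval 0.14 to 0.69), or 1.33-fold, with a limma adjusted p of 0.129. Its level ran from 1.31 through a median of 1.54 to 1.75 in the knockout. The wild-type values were 0.98, 1.20, 1.11, 0.91 and 1.34. The groups overlapped in 1 wild-type array, culture 8, which lay above the lowest 2 knockout arrays. The exact permutation p was 0.00505 (two-sided). Within the 3 slides the difference was 0.37, 0.37 and 0.45.

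Prdx5, which is found in mitochondria, peroxisomes and the cytosol, had the same mean in both groups to within 0.0084 (SE 0.201, 95% interval -0.42 to 0.44). Its level was higher in sample numbers 1 to 4 than in 5 to 8, but 1 to 4 hold only 1 wild-type array. Number set and slide cannot be fully told apart: knockout cultures 1 to 3 lay on slide 2, and 6 and 7 on slide 1. Knockout cultures 1 to 4 averaged 3.58 ± 0.13 (SD, n = 4) and cultures 5 to 7 averaged 2.94 ± 0.21 (SD, n = 3). Wild-type culture 3 was at 3.76, and wild-type cultures 5 to 8 averaged 3.18 ± 0.19 (SD, n = 4). With the number set (1 to 4 or 5 to 8) as a block, the Prdx5 difference was -0.22 (SE 0.126, limma adjusted p = 0.344). The labels do not say what the numbers stand for. The Prdx5 difference was also below 0 after quantile normalization (-0.11), median centring (-0.046) and in the authors' deposited table, itself titled as quantile-normalized (-0.11).

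Prdx2, the abundant cytosolic peroxiredoxin of red blood cells and neurons, was 4.64 ± 0.12 on knockout arrays (SD, n = 7) and 4.49 ± 0.19 on wild-type arrays (SD, n = 5). The difference of 0.15 (95% interval -0.12 to 0.42) was not called (limma adjusted p = 0.592), and it was 0.012 after quantile normalization. Prdx6 is a 1-Cys peroxiredoxin that also has phospholipase activity and is recharged through glutathione rather than thioredoxin. It averaged 1.27 ± 0.20 in the knockout (SD, n = 7) and 1.01 ± 0.40 in the wild type (SD, n = 5), a difference of 0.25 (95% interval -0.13 to 0.64, limma adjusted p = 0.514). The wild-type spread came from cultures 3 and 5, at 0.55 and 0.62, while cultures 6, 7 and 8 were at 1.32, 1.40 and 1.18. A further probe, described in the array files as a 1-Cys peroxiredoxin but not named Prdx6 there, lies on the same chromosome at chr13:76824456-76824515 (rn4), beside the Prdx6 probe at chr13:76825116-76825175. It was at 4.21 ± 0.27 (SD) on knockout and 4.16 ± 0.19 (SD) on wild-type arrays, a difference of 0.054 (limma adjusted p = 0.906).

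**Figure D2:**
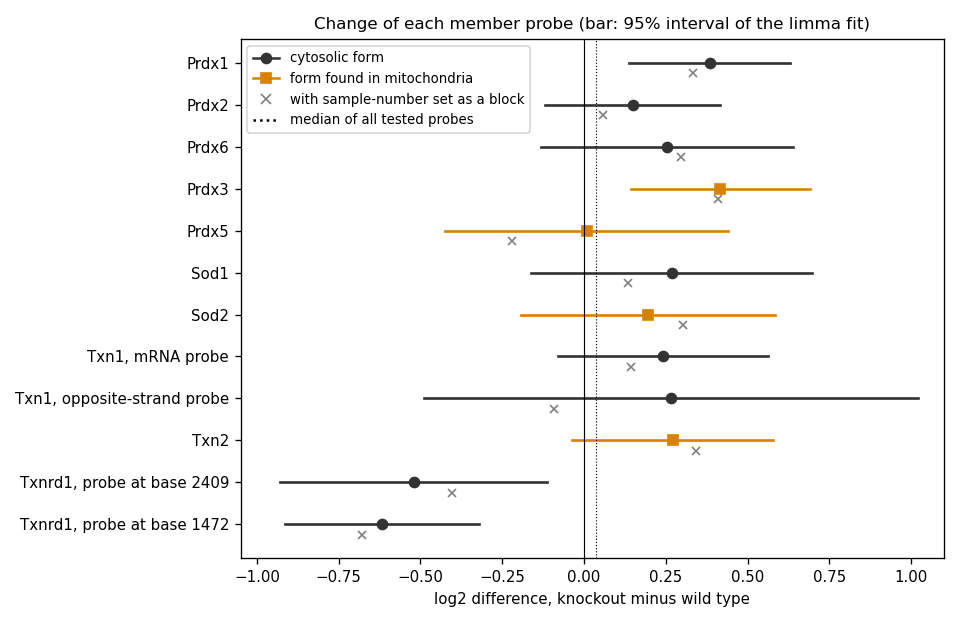
Log2 difference, knockout minus wild type, for each member probe with its 95% interval from the limma fit (7 knockout and 5 wild-type arrays). Circles are cytosolic forms, squares forms found in mitochondria, crosses the same difference with the sample-number set as a block, and the dotted line the median of all tested probes at 0.035. Only the intervals of Prdx1, Prdx3 and both Txnrd1 probes exclude 0.

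Txnrd1 is a selenoprotein that passes electrons from NADPH to cytosolic thioredoxin, and both of its probes were lower in the knockout on average. At base 1472 its level ran from -3.53 through a median of -3.11 to -2.73 in the knockout. The wild-type values were -2.53, -2.60, -2.35, -2.57 and -2.42. All 7 knockout arrays lay below all 5 wild-type arrays. The probe fell by 0.62 (SE 0.138, 95% interval -0.91 to -0.32), which is 1.54-fold, with a limma adjusted p of 0.0498 and an exact permutation p of 0.00126 (two-sided). Within slides 1, 2 and 3 the difference was -0.65, -0.49 and -0.67, and with the slide as a block it was -0.62 (limma adjusted p = 0.0482, with 2.64% of all probes called).

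The adjusted p of this probe was close to the threshold. It was called in 8 of 28 alternatives and had a negative difference in all 28. It was not called after quantile normalization (limma adjusted p = 0.0807), after normexp background correction (-0.31, limma adjusted p = 0.806, with 0.173% of all probes called), or when any culture other than knockout 4 or wild type 3 was left out (limma adjusted p from 0.0559 to 0.136). With the sample-number set as a block it was called at -0.68 (limma adjusted p = 0.0139), where 5.1% of all probes were called, and at -0.78 among numbers 5 to 8 alone (limma adjusted p = 0.042, with 4.21% of all probes called). Its signal was well below the 75th percentile of each array, and of the alternatives normexp moved its difference most. That setting adds an offset of 50 intensity units before the log, which shrinks differences of dim probes by construction. How much of the move came from the offset was not tested.

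The other Txnrd1 probe, which starts at transcript base 2409, gave a difference of -0.52 (SE 0.190, 95% interval -0.93 to -0.11) that was not called (limma adjusted p = 0.201, exact permutation p = 0.0253). Its listed rn4 placement, chr7:23055528-23055561, covers 34 bases, fewer than the 60 of the probe, and the reason was not examined. Its level ran from -1.90 through a median of -1.72 to -1.20 in the knockout. The wild-type values were -1.72, -0.77, -0.85, -1.37 and -0.98. The groups overlapped, since wild-type culture 3 lay at the knockout median. Without that culture both Txnrd1 probes were called, this one at -0.67 with a limma adjusted p of 0.0498, in a fit that called 4.33% of all probes. Among sample numbers 1 to 4, where wild-type culture 3 is the only control, the difference was 0.011.

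Txn1, the small cytosolic disulfide reductase that recharges Prdx1 and Prdx2, was 5.26 ± 0.19 on knockout arrays (SD, n = 7) and 5.02 ± 0.27 on wild-type arrays (SD, n = 5). The difference of 0.24 (95% interval -0.081 to 0.56) was not called (limma adjusted p = 0.451, exact permutation p = 0.096). The lowest wild-type array was culture 7 at 4.64 and the highest culture 3 at 5.37, below the highest knockout array at 5.57. A further probe named Txn1 was designed on an expressed sequence tag at chr5:75921351-75921410 and runs in the opposite direction in rn4 to the mRNA probe, so it is not a repeat measurement of the mRNA. It averaged -1.96 ± 0.70 in the knockout and -2.22 ± 0.61 in the wild type, a difference of 0.27 (95% interval -0.49 to 1.02, limma adjusted p = 0.758).

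Txn2, the thioredoxin of the mitochondrial matrix, held a narrow range in the knockout, from 0.55 through a median of 0.70 to 0.74. The wild-type values were 0.0069, 0.21, 0.68, 0.77 and 0.42. Wild-type culture 7 was above every knockout array, and cultures 3, 5 and 8 were below every one. The difference was 0.27 (SE 0.142, 95% interval -0.035 to 0.58) with a limma adjusted p of 0.371 and an exact permutation p of 0.0354. It was 0.49 and 0.44 within slides 1 and 2 but 0.0097 within slide 3, whose arrays include wild-type cultures 6 and 7.

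Neither superoxide dismutase was called. Sod1, the copper-zinc enzyme, was 5.14 ± 0.31 on knockout arrays (SD, n = 7) and 4.87 ± 0.39 on wild-type arrays (SD, n = 5), a difference of 0.27 (95% interval -0.16 to 0.70, limma adjusted p = 0.541). Its wild-type values were 5.23, 5.19, 4.59, 4.35 and 5.01. The lowest array of each genotype, knockout 5 at 4.52 and wild type 7 at 4.35, lay on slide 3.

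Sod2, the manganese enzyme of the matrix, was 3.44 ± 0.24 on knockout arrays (SD, n = 7) and 3.25 ± 0.37 on wild-type arrays (SD, n = 5), a difference of 0.19 (95% interval -0.19 to 0.58, limma adjusted p = 0.637). The wild-type values were 3.05, 3.22, 3.01, 3.89 and 3.05, and in the knockout it ran from 3.22 to 3.93. The same pair of arrays that were lowest for Sod1 were highest for Sod2. The other slide 3 arrays, knockout 4 and wild type 6, were at 3.49 and 3.01 for Sod2 and at 5.03 and 4.59 for Sod1. On slide 3 the 75th percentile signals were also the lowest of the study, from 120.1 to 189.7 intensity units against 219.9 to 691.8 on slides 1 and 2. Within slides 1, 2 and 3 the Sod2 difference was 0.41, 0.026 and 0.26. With the slide as a block it was 0.25 for Sod2 (limma adjusted p = 0.434) and 0.18 for Sod1 (limma adjusted p = 0.486).

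The mitochondrial form was set against its cytosolic counterpart within each array, which asks whether the compartments changed unequally. Of 4 pairs, none passed the test with the 75th percentile scaling (exact permutation tests, two-sided, adjusted over 4 pairs). For Sod2 against Sod1 the difference of the changes was -0.073 (SE 0.356, exact p = 0.816, adjusted 0.898). For Txn2 against Txn1 it was 0.030 (SE 0.228, exact p = 0.898, adjusted 0.898). For Prdx3 against Prdx1 it was 0.032 (SE 0.097, exact p = 0.740, adjusted 0.898). These estimates are near 0 but their errors differ. The log2 ratio of Prdx3 to Prdx1 varied by an SD of 0.13 among knockout arrays, and that of Sod2 to Sod1 by 0.55. On each array Prdx1 was read from 10 spots and Prdx3 from 2, but Sod1 and Sod2 from 1 each. For Prdx3 against Prdx2 the difference was 0.27 (SE 0.142, exact p = 0.096, adjusted 0.384), which did not pass. It did pass after quantile normalization, at 0.33 (exact p = 0.0114, adjusted 0.0456), and in the authors' deposited table, also at 0.33 (exact p = 0.0101, adjusted 0.0404). That table is itself titled as quantile-normalized, so it repeats the same scaling rather than adding a separate result.

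By compartment, the 4 genes with mitochondrial products (Prdx3, Prdx5, Txn2 and Sod2) had differences from 0.0084 to 0.42 with a median of 0.23. The 6 cytosolic genes ran from -0.52 to 0.38 with a median of 0.25. At the brightest probe of each gene, 0 of 4 and 0 of 6 were called by limma, against 1.15% of all probes tested. At an unadjusted p under 0.05 (limma) there were 1 of 4 and 2 of 6, against 15.8% of all probes tested. These counts are too small to set the compartments apart.

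**Figure D3:**
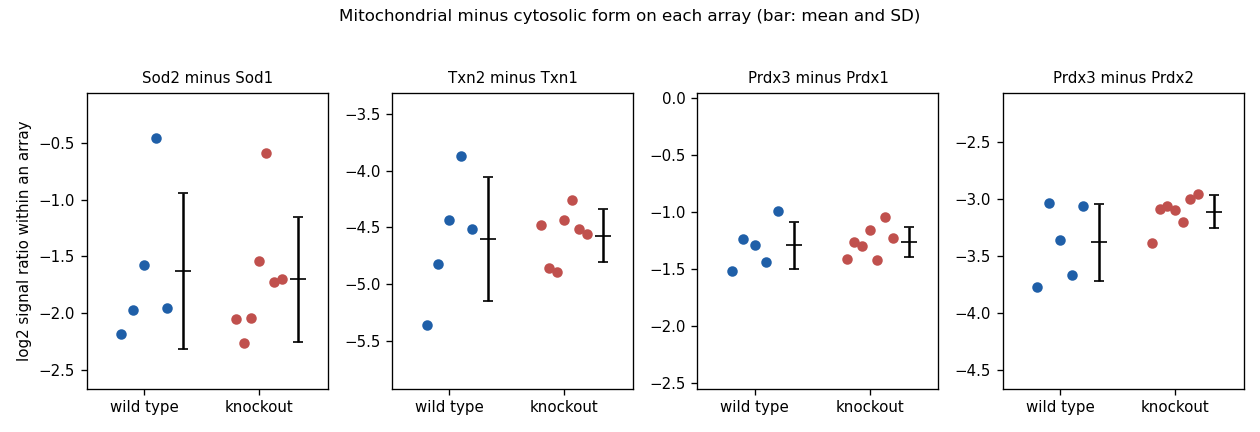
Log2 signal of the mitochondrial form minus that of the cytosolic form on each array, for 4 pairs, with wild type in blue (n = 5) and knockout in red (n = 7), and mean and SD as bars. All panels span the same number of log2 units. The groups overlap in all 4 panels, and the ratio of Sod2 to Sod1 is highest on 1 array of each genotype, at -0.59 in the knockout and -0.46 in the wild type.

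Regions upstream of the gene starts were taken from RefSeq (GRCr8), where 9 of the 10 members had an entry. Each window runs from 250 bases before to 50 bases after the start. The core of the antioxidant response element, TGACNNNGC, which is the motif of the oxidative stress factor NRF2, was searched on both strands and occurred in 12.1% of 33469 such windows. It was found for Prdx1, Prdx5, Txnrd1 and Sod2. The windows of Prdx1 and Txnrd1 are shown because these genes hold the same motif while a probe of each separated the genotypes, in opposite directions. The other Txnrd1 probe overlapped between the groups. Only the 250 bases before the start are printed, with the motif match, and for Prdx1 also a TATAAA, in capitals.
Prdx1, chr5:135383656-135383905 (GRCr8, plus strand): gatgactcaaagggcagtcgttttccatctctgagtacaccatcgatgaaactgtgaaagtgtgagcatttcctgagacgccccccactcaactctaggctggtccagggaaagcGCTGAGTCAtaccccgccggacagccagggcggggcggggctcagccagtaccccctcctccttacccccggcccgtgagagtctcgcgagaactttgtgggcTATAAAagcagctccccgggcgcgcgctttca
Txnrd1, chr7:22755905-22756154 (GRCr8, minus strand): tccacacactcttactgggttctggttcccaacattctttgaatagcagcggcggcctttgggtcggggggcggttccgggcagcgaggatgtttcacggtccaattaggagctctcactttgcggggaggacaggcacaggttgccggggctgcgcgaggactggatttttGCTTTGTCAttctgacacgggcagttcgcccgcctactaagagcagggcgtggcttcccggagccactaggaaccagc
The matches, both on the opposite strand to the gene, begin at -135 for Prdx1 and at -78 for Txnrd1, counted from the start. The Txnrd1 window is 1 of 2 listed for that gene, and the other holds no match. The letters TATAAA, present on either strand in 14.2% of windows, were found for Prdx1 at -32, Txn1 at -112 and Sod1 at -28. A match describes the letters only and says nothing of binding in these cells.

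Other genes of the same chemistry were read from 4 lists, and no gene of them was called by limma at the brightest probe. The share called over all probes tested was 1.15%. Among 13 relatives of the members, 11 were tested, with a median difference of -0.0039 against 0.035 over all probes. Of the 11, 1 had an unadjusted p under 0.05 (limma), against 15.8% of all probes tested. That gene was Txnip, which binds and inhibits thioredoxin. Txnip ran from -1.68 through a median of -1.302 to 0.088 in the knockout and from -0.74 through 0.29 to 0.99 in the wild type. The groups overlapped, and the difference was -1.19 (SE 0.355, limma adjusted p = 0.122, exact permutation p = 0.0215). Its low knockout arrays were cultures 1 to 4, and with the number set as a block the difference was -0.72 with a limma adjusted p of 0.0263, in a fit that called 5.1% of all probes. Ccs, the copper chaperone of Sod1, was next by p at 0.31 (limma adjusted p = 0.413). Txnrd2, the mitochondrial reductase, was at -0.23 (limma adjusted p = 0.660), Prdx4, the peroxiredoxin of the endoplasmic reticulum, at -0.087 (limma adjusted p = 0.798), and Srxn1, which repairs overoxidised peroxiredoxins, at 0.037 (limma adjusted p = 0.965). The pair of probes for Txnl1, a thioredoxin-like protein bound to the proteasome, differed in size, at -0.14 for the brighter and -0.98 for the other (limma adjusted p = 0.890 and 0.111). Txnrd3 and Sod3 were too dim to be tested.

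Of 14 genes for other peroxide and thiol repair, 10 were tested, with a median difference of 0.068. Gpx8, a glutathione peroxidase family member of the endoplasmic reticulum, was at -0.54 (limma adjusted p = 0.269). Cat, the peroxisomal catalase, was at 0.56 (limma adjusted p = 0.338), with wild-type culture 6 at -5.08 below the other wild-type arrays at -3.59 to -3.02. Gpx2, Gpx3, Msra and Msrb2 were too dim to be tested.

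Of 13 regulators and targets of NRF2, 11 were tested, with a median difference of 0.075. Slc7a11, the cystine importer that feeds glutathione synthesis, ran from -1.65 through a median of -1.51 to -0.39 in the knockout and from -0.50 through 0.79 to 1.08 in the wild type. The groups overlapped in wild-type cultures 3 and 7, and the difference was -1.52 (SE 0.347, limma adjusted p = 0.0562, exact permutation p = 0.00884). Abcc1, an exporter of glutathione conjugates, differed by -0.79 (SE 0.198, limma adjusted p = 0.0747) without overlap between -0.056 to 0.91 in the knockout and 0.99 to 1.65 in the wild type. The second probe of each of these genes was too dim to be tested. With the number set as a block, both were called, at -1.24 and -0.88 (limma adjusted p = 0.0455 and 0.0264), in the fit that called 5.1% of all probes against 1.15% without the block. Nqo1, Hmox1 and Gclc, further NRF2 targets, were not called. Nqo1 was at 0.11, Hmox1 at 0.32 and Gclc at 0.075, with limma adjusted p from 0.403 to 0.921. Nfe2l2, which encodes NRF2, was at -0.20 (limma adjusted p = 0.506) and its inhibitor Keap1 at 0.43 (limma adjusted p = 0.234).

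All 9 NF-kB targets, listed because Sod2 is a known target of that factor, were tested, with a median of -0.083. Birc3, an inhibitor of cell death signalling, was at 0.29 (limma adjusted p = 0.290) and Relb, an NF-kB subunit, at -0.32 (limma adjusted p = 0.430).

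**Figure D4:**
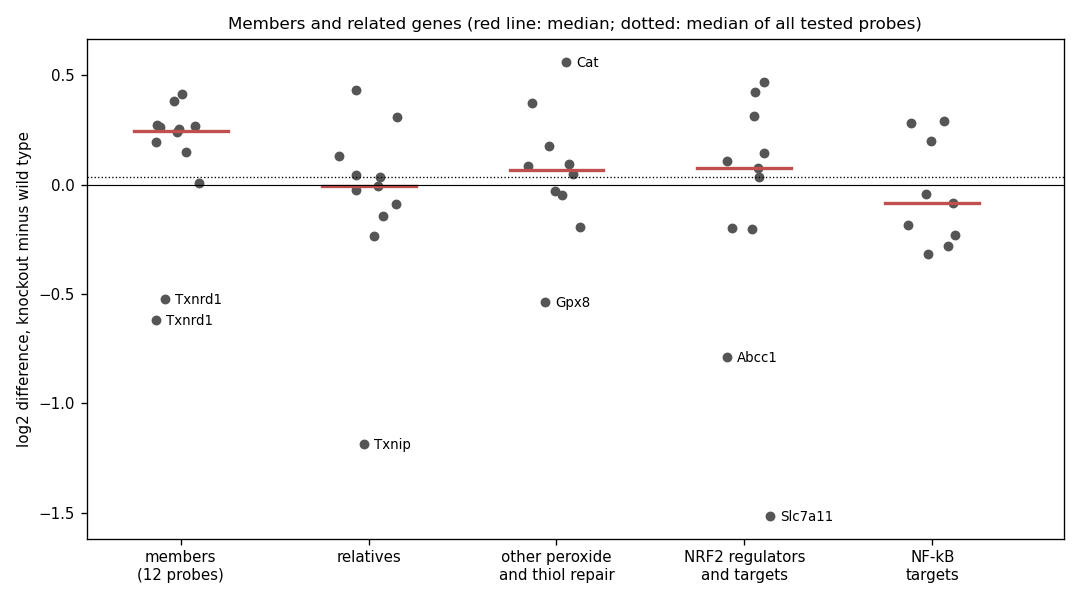
Log2 difference, knockout minus wild type, of the 12 member probes and of the tested genes in 4 related lists (11, 10, 11 and 9 genes), 1 point per probe or gene. Red lines are medians and the dotted line is the median of all tested probes, and genes past 0.5 in either direction are named. The member median of 0.25 lies above the list medians of -0.0039, 0.068, 0.075 and -0.083, and the most negative genes are Slc7a11, Txnip and Abcc1.

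The genes whose levels ran most alike to 3 members over the 12 arrays are given as a description, since the arrays share scaling and genotype. For Txnrd1 at base 2409 they were Myc (Pearson's r = 0.916), Tspan6 (0.915) and Ywhah (0.899). For Prdx3 they were Tmem186 (0.951), Zfp207 (0.932) and Rnf11l1 (0.928). For Prdx1 they were Dok1 (0.930), Hsbp1 (0.927) and Eif3i (0.920).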

How the data were processed

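RNA was isolated with Trizol and Cy3-labelled, per the labels' protocols. The submitters' processing notes name Agilent Feature Extraction 10.7 and the file headers 10.1.1.1. The scanner files the authors deposited hold linear spot intensity, with yes-or-no flags as other columns, per the file headers. The authors' deposited table, an alternative here, holds log2 values with a median of 3.06 on every array, which rank as the scanner signal does (Spearman 0.999). Its centring is unknown.

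Of 58717 spots that are not controls, those with outlier flags (0.874%) were left out, and none was saturated. Log2 processed signals were averaged over the spots of a probe and set relative to the array's 75th percentile. The probes of Prdx1, Prdx5 and Txn1 mRNA had 10 spots, that of Prdx3 had 2 and each other member probe had 1. Probes well above background on at least 5 of 12 arrays (17890) were fitted with limma 3.58.1 (R 4.3.3, empirical Bayes, two-sided, no covariate), and a probe was called at a Benjamini-Hochberg adjusted p under 0.05 over all of them. The fit was tested on simulated data with independent noise and no slide or sample-number effect, so that test does not cover such effects. All member probes were named, and of each list the called genes, or otherwise the 2 of smallest p, with other listed genes added after their values were seen. The brightest probe stood for a gene in the lists and pairs. The members, lists, tests and the split of sample numbers at 4 were chosen with earlier results of these data known. Alternatives covered scaling, background, filters, slide, scan day, sample numbers and each array left out. Coordinates are rn4, per the file headers, and promoters are RefSeq's, on GRCr8.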

Additional observations from a re-analysis of the deposited data

Results flagged for a closer look

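Among 42 groups of arrays examined (each member probe, the named list genes and Vdac1, by genotype), 5 held an array far from the rest of its group by Dixon's test, where chance flags about 1 group in 20. Txn2 was at 0.548 on knockout 3, below the other knockout arrays at 0.692 to 0.74. Sod2 was at 3.93 on knockout 5, above the others at 3.22 to 3.49, and at 3.89 on wild type 7, above the others at 3.01 to 3.22. Both arrays lay on slide 3, where knockout 4 was at 3.49 and wild type 6 at 3.01 for Sod2. Cat was at -5.08 on wild type 6, below the others at -3.59 to -3.02. Vdac1 was at 3.61 on wild type 3, above the others at 3.07 to 3.16.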

How the results depend on the processing

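The 10 genes kept the sign of their difference under every alternative run, except those named here. Prdx5 was at -0.108 after quantile normalization, -0.0465 with median centring, -0.0334 with the 75th percentile over detected probes, -0.109 in the deposited table, -0.0822 with the slide and -0.0218 with the scan day as a block, -0.326 and -0.0968 within slides 1 and 3, -0.222 with the number set as a block, -0.238 among numbers 5 to 8 and -0.187 among numbers 1 to 4. Within slide 1, Prdx2 was at -0.0674 and the opposite-strand Txn1 probe at -0.406, which was at -0.0923 with the number set as a block. In numbers 1 to 4 alone, Prdx2 was at -0.0255, Txn1 at -0.0328 and -0.29 at its 2 probes, and Txnrd1 at base 2409 at 0.0107. Leaving out 1 array at a time gave -0.0634 to 0.125 for Prdx5, and the sign of no other member changed.

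Over the whole array 205 probes were called (126 higher, 79 lower), and 31 with normexp, 130 with quantile normalization (65 higher, 65 lower), 61 with median centring (26 higher, 35 lower), 129 in the deposited table (64 higher, 65 lower), 0 without the filter on dim probes (2434 at an unadjusted p under 0.05, limma), 343 above background on all 12 arrays, 472 with the slide as a block, 0, 2168 and 0 within slides 1, 2 and 3 (2141 and 964 unadjusted in slides 1 and 3, limma), 383 with the scan day as a block, 913 with the number set as a block, 753 in numbers 5 to 8 and 53 in numbers 1 to 4. The deposited table is itself titled as quantile-normalized, so it and the quantile normalization are near repeats of each other throughout this section. The 75th percentile over detected probes gave 75 higher and 75 lower. Leaving out 1 array gave 18 to 775, the highest without wild type 3. The call of the Txnrd1 probe was lost, leaving 0 members called, under normexp, quantile normalization, median centring, the deposited table, no filter, each slide alone, numbers 1 to 4 alone and 1 probe per gene (0 members, since the other Txnrd1 probe then stands for the gene). Leaving out 1 array gave 0 to 2 members called. At an unadjusted p under 0.05 (limma), 3 to 6 of the 12 member probes passed under the leave-one-out fits. Over the whole array 2220 to 3910 of the 17890 probes tested did so.

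No pairing of the cultures by shared sample numbers (3, 5, 6 and 7) was evident. The correlations of same-numbered deviations were 0.445, -0.114, 0.0667 and 0.05, and 1 of 4 correlated best with its own number. The labels do not say whether cultures of the same number were matched, and 4 correlations cannot settle it. With the replicate block 0 probes were called over the whole array (1849 at an unadjusted p under 0.05, limma) and 0 members, Txnrd1 at base 1472 was at -0.694, Prdx5 at -0.254, and Sod2 against Sod1 at 0.0329.

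For Sod2 against Sod1 the difference of changes was 0.0718 with the slide, 0.0353 with the scan day and 0.17 with the number set as a block, 0.36 within slide 1, 0.153 in numbers 5 to 8 and 0.207 in numbers 1 to 4, and -0.258 to 0.219 leaving out 1 array. For Txn2 against Txn1 it was -0.0122 with normexp, -0.192 within slide 3, -0.033 in numbers 5 to 8, and -0.16 to 0.213 leaving out 1 array. For Prdx3 against Prdx1 it was -0.0122 with normexp and -0.0874 within slide 2, and -0.0226 to 0.109 leaving out 1 array. For Prdx3 against Prdx2 it was -0.14 within slide 2, and it passed 0.05 with quantile normalization (0.331, adjusted p = 0.0456) and in the deposited table (0.332, adjusted p = 0.0404), exact permutation tests adjusted over 4 pairs. Only before that adjustment did it pass with the number set as a block (0.351) and without wild type 5 (0.353) or wild type 8 (0.348). Leaving out 1 array gave 0.169 to 0.353.

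Called NRF2 genes numbered 2 above background on all 12 arrays (2.64% of all probes called), 2 with the slide as a block (2.64%), 2 with the scan day (2.14%) and 2 with the number set (5.1%). Slide 2 sets 3 knockout arrays against 1 wild-type array, so its values rest on that lone control. Within it the median difference was 0.161 for NRF2 genes, 0.0059 for relatives and -0.013 for other peroxide and thiol repair. The number set as a block called 1 relative, Txnip. Leaving out 1 array gave 0 to 1 for NRF2 genes and for relatives. The causes were not tested. With normexp, which used an offset of 50 intensity units, Txnrd1 at base 1472 was at -0.312, and why it moved was not tested.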
